A study of Mus musculus with 2 samples.

Results

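The AP-1 and EGR immediate early factors are 10 transcription factor genes: the AP-1 subunit genes Fos, Fosb, Fosl1, Fosl2, Jun, Junb and Jund, and the zinc finger genes Egr1, Egr2 and Egr3. They were chosen by name, as the rows of both deposited tables whose gene symbol was one of these, and 10 of 10 were found among 52636 genes in each table. RNA-seq was run on 1 library labelled KO, from mice lacking the microRNA miR-29a, and on 1 library labelled WT, from wild-type mice. Per the labels, all mice were C57BL/6 and 8 weeks old, the tissue was retina, and each library pooled the retinas of 3 mice. The labels do not say how the deletion was made. With 1 library per genotype there is no replicate check and no p-value, so every difference below is between these libraries and not between the genotypes.

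AP-1 is a dimer of a basic leucine zipper protein of the FOS family and one of the JUN family, or of JUN family members alone. It binds short palindromic sites in the promoters and enhancers of genes of growth, matrix remodelling and inflammation. EGR proteins bind GC-rich sites through zinc fingers and are held in check by the corepressors NAB1 and NAB2. Growth factors, light, depolarisation and tissue handling induce genes of this kind, the classical ones such as Fos and Egr1 within minutes and without new protein synthesis, through serum response factor, CREB and the MAP kinase cascade. Their mRNAs are short-lived, in part because AU-rich sequences in the 3' UTR recruit decay factors. In the retina, Fos and Egr1 are known as activity-dependent genes, and in the chick Egr1 marks responses of amacrine cells.

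The microRNA absent from the mice pairs with its targets through bases 2 to 8, the seed. The mature sequence of miR-29a-3p (RefSeq, GRCm38.p6, chr6:31062673-31062694, minus strand) is shown with the seed in capitals, followed by the 3' UTR stretches of the members that hold the complementary heptamer TGGTGCT, in capitals. They are shown because a seed match is what would make a member a direct target candidate. The stretches lie at chr12:85476830-85476858 for Fos, chr19:5455317-5455345 for Fosl1 and chr14:70080664-70080692 for Egr3 (GRCm38, GENCODE M21, plus strand), each in the longest annotated 3' UTR.
miR-29a-3p: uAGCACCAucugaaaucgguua
Fos: tattggaattaaccTGGTGCTggattgta
Fosl1: gccacatcccttgcTGGTGCTactccaag
Egr3: tgctgcagctgcagTGGTGCTgctgccgc

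The heptamer was thus present in 3 of 10 members, against 17.4% of 11593 genes with a 3' UTR and enough reads. In Fosl1 it began 23 bases into the 3' UTR and was followed by A, the letter that extends such a match by a base. In Fos it began at base 386 of 815 and in Egr3 at base 773 of 2645, and in both it was followed by G. The 3 genes with the heptamer did not share a direction. Egr3 had a log2 ratio of KO over WT of 1.09, Fosl1 of -0.07 and Fos of -0.31. A match of letters is a description and does not show binding.

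The libraries held 24876925 counts (labelled KO) and 26805902 counts (labelled WT). Levels across libraries are given as CPM, counts scaled to the library total, and the limit set by a count of 0 (3 counts) was 0.121 CPM in the library labelled KO and 0.112 CPM in the library labelled WT. Mir29a itself had 0 counts in both, so these data check neither label. Retinal neuron markers went against the labelled tissue, with 20 of 26 photoreceptor, bipolar, amacrine, horizontal and ganglion cell markers under 1 CPM in both libraries. The highest were Prkca, Rbpms and Slc6a9, at 48.4, 31.8 and 17.2 CPM in the library labelled KO. The 5 Mueller glia markers summed to 4571 CPM (labelled KO) and 3841 CPM (labelled WT). Of these, Vim gave 4381 and 3677 CPM, and Aqp4 had 0 counts in both. The 8 fibroblast markers summed to 11372 CPM in the library labelled KO and 9849 CPM in the library labelled WT. Xist had 0 counts in the library labelled KO and 4288 in the library labelled WT, and the Y-linked gene Kdm5d had 310 and 30. The Y-linked genes Ddx3y, Eif2s3y and Uty had 376, 280 and 126 counts in the library labelled KO. They had 67, 50 and 17 in the library labelled WT. The libraries thus differed in sex-linked RNA, and sex and genotype cannot be told apart in the differences below. Macrophage and microglia markers summed to 585 and 256 CPM, with 8 of 9 higher by 2-fold or more in the library labelled KO, and endothelial markers to 43.3 and 23.3 CPM, with 3 of 5 past the count minimum higher. The part of these cell types in the results below was not tested, and in bulk RNA a change in cell number and a change in RNA per cell cannot be told apart. Libraries are called by their labels for these reasons.

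The AP-1 genes were close to level between the libraries, with small log2 ratios that were all below 0 before transcript GC content and length were corrected for, and 1 EGR gene, Egr3, was about 2-fold higher in the library labelled KO. Ratios were taken for genes that reached 50 counts in at least 1 library, and all 10 members did. By 2-fold or more (an absolute log2 ratio of 1, with 0.5 CPM added to each value), 1 of 10 members was higher and 0 were lower. The background over 12382 genes was 4.47% higher and 2.82% lower, so the members' count was near it. The median log2 ratio of the members was -0.15, against 0.06 for all genes. All 4 FOS and all 3 JUN members had a log2 ratio below 0, as did 45% of all genes, and all 3 EGR members one above 0, as did 55% of all genes. Of the 7 AP-1 members, 4 came out above 0 once the GC content and length of transcripts were corrected for, as given below. The 95% counting interval of the fold, which covers counting error only, lay wholly below 1 for 5 members and wholly above 1 for 2, against 31.2% and 40.3% of all genes.

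**Figure D1:**
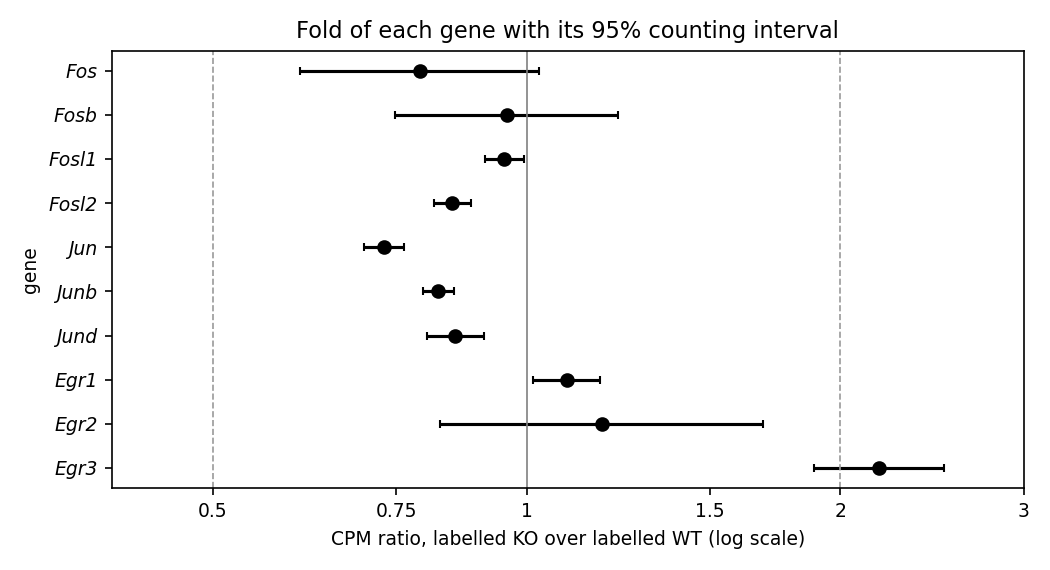
Ratio of CPM, library labelled KO over library labelled WT, on a log axis for each member; bars are 95% counting intervals and dashed lines mark 2-fold. Egr3 stands at 2.18 with an interval of 1.89 to 2.52, and Jun is lowest at 0.730.

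In both libraries the members stood in the same order of level, from Junb at the top to Egr2 at the bottom. Levels are given as the authors' FPKM, which divides by gene length and so allows genes to be compared. In the library labelled KO, the level of Junb was 104 FPKM, of Fosl1 93.5, of Jun 42.7, of Jund 42.6, of Fosl2 17.7, of Egr1 12.9, of Egr3 5.42, of Fos 1.77, of Fosb 0.832 and of Egr2 0.831. In the library labelled WT, the level of Junb was 131 FPKM, of Fosl1 102, of Jun 60.8, of Jund 51.9, of Fosl2 21.7, of Egr1 12.3, of Egr3 2.59, of Fos 2.33, of Fosb 0.904 and of Egr2 0.732. Some neighbours in this order did not differ beyond counting error. These were Jun and Jund in the library labelled KO, Egr3 and Fos in the library labelled WT, and Fosb and Egr2 in both. Junb stood in the top 3.21% and 2.75% of detected genes by FPKM, in the libraries labelled KO and WT, and Fosb in the top 59.4% and 59.2%.

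**Figure D2:**
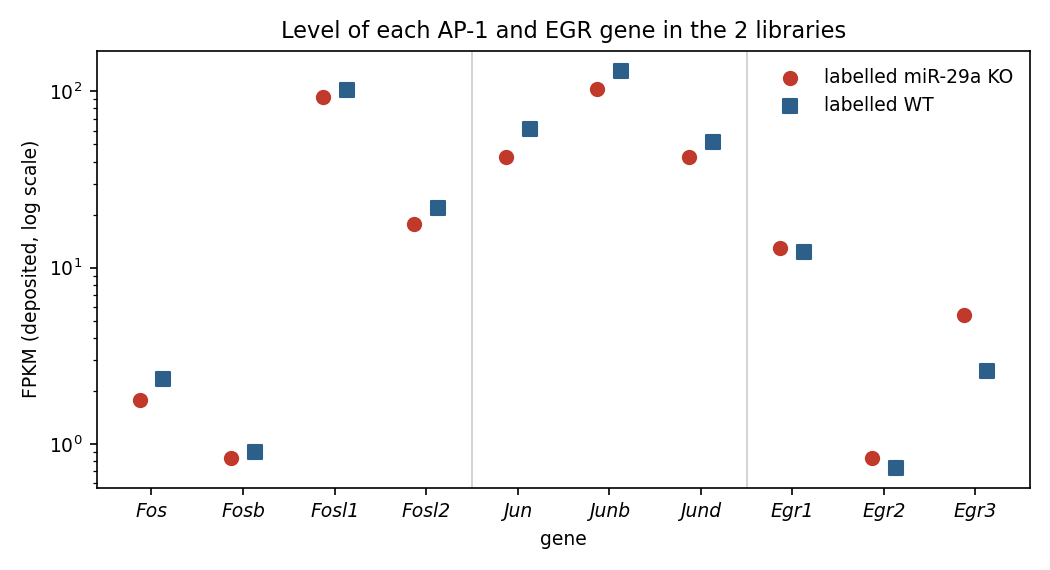
Deposited FPKM of each member in the library labelled KO (circles) and the library labelled WT (squares), on a log axis, with FOS, JUN and EGR members set apart by lines. Levels span Junb at 104 and 131 FPKM to Egr2 at 0.831 and 0.732.

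The FOS family was made up mostly of Fosl1, which encodes FRA-1, a FOS protein without the transactivation domain of c-FOS and known as a later-induced and longer-lasting AP-1 subunit. Fosl1 had 3901 counts in the library labelled KO and 4416 in the library labelled WT, a ratio of 0.952 (0.912 to 0.994). It held 82.1% of the family's summed FPKM in the library labelled KO and 80.3% in the library labelled WT. The length behind the authors' FPKM of Fosl1 was 1707 bases, and by length of the longest transcript in GENCODE M21 for each gene these shares were 74.3% and 72.0%. Exons of Fosl1 share 1163 bases with Ccdc85b on the opposite strand in GENCODE M21, and the library kit does not mark strand, so reads from that stretch cannot be assigned with certainty. The lengths implied by the authors' FPKM, 1707 bases for Fosl1 and 609 for Ccdc85b, are shorter than the 2033 and 4715 bases of exon in that release, so the overlap in the annotation behind the counts is not known. Ccdc85b had 4073 counts in the library labelled KO and 6791 in the library labelled WT.

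Fosl2, which encodes FRA-2, the other FOS protein of this kind, had 4199 counts in the library labelled KO and 5332 in the library labelled WT. Its fold was 0.849 (0.815 to 0.884), a log2 ratio of -0.24. It held 15.6% of the family's level in the library labelled KO and 17.1% in the library labelled WT.

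Fos, the prototype immediate early gene and the cellular form of a viral oncogene, was a minor member. It had 102 counts in the library labelled KO and 139 in the library labelled WT, a fold of 0.791 whose interval of 0.606 to 1.03 held 1. Fosb, whose short splice form is known to build up in neurons after repeated stimulation, had 127 counts in the library labelled KO and 143 in the library labelled WT, with a fold of 0.957 (0.748 to 1.22). Gene-level counts do not separate the splice forms. Neither gene differed between the libraries beyond counting error. The level of Fosl1 was 52.7 times that of Fos in the library labelled KO and 43.8 times in the library labelled WT.

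**Figure D3:**
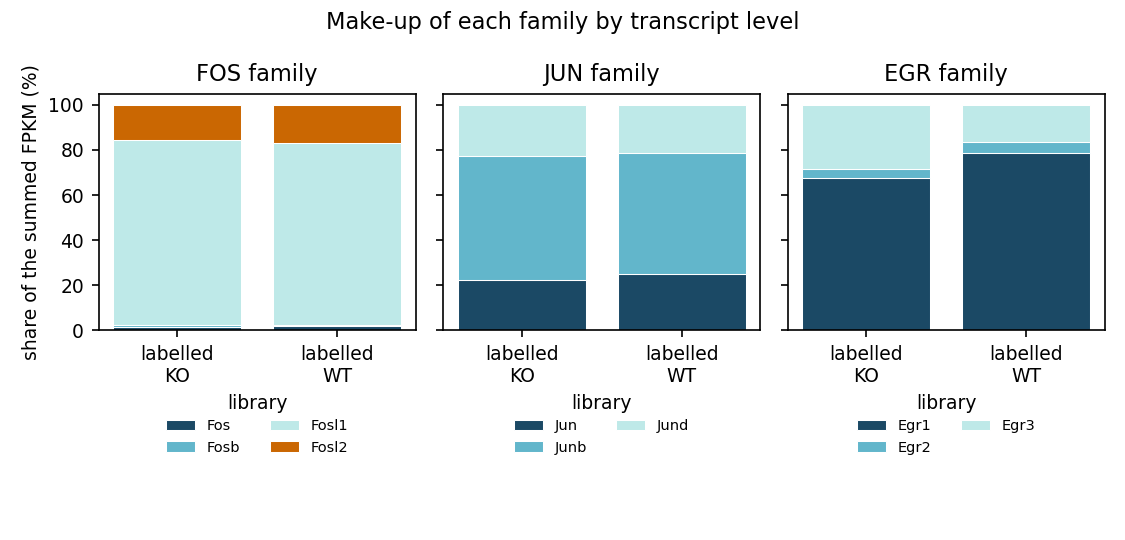
Share of each member in the summed FPKM of its family, library labelled KO left and library labelled WT right. Fosl1 and Junb lead their families in both libraries, and Egr3 takes 28.3% of the EGR family in the library labelled KO and 16.6% in the library labelled WT.

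In the JUN family, Junb led, with 54.9% of the summed FPKM in the library labelled KO and 53.8% in the library labelled WT. Junb encodes a JUN protein that often acts against c-JUN on growth genes. It had 5838 counts in the library labelled KO and 7649 in the library labelled WT, a fold of 0.822 (0.795 to 0.851). Jun, which encodes c-JUN, the strongest activator of the family and the substrate of JNK kinases, showed the lowest ratio of all members. Its counts were 3327 in the library labelled KO and 4914 in the library labelled WT, a fold of 0.730 (0.698 to 0.763), which is a log2 ratio of -0.45. Jund encodes the member that is least induced and is found in most resting cells. It had 1739 counts in the library labelled KO and 2193 in the library labelled WT, a fold of 0.854 (0.802 to 0.910).

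Summed over the 3 JUN genes, the level was 438 CPM in the library labelled KO and 550 CPM in the library labelled WT, a fold of 0.796 (0.777 to 0.816). No family sum was corrected for GC content and length. After that correction, given below, the log2 ratio was -0.34 for Jun, 0.06 for Junb and 0.11 for Jund. The FOS sum was 335 CPM and 374 CPM, a fold of 0.895 (0.869 to 0.921). Some reads of the JUN genes lie in exons shared with genes on the other strand in GENCODE M21. Jun shares 232 bases with the antisense gene Junos, which had 104 counts in the library labelled KO and 67 in the library labelled WT. Junb shares 173 bases with the peroxiredoxin gene Prdx2, which had 18280 and 18511 counts. Jund, with 1668 bases of exon, shares 877 bases with the antisense gene Gm11175, which had 0 counts in both. All 877 bases of Gm11175 lie within Jund, so without strand its 0 counts do not show that antisense RNA was absent. Whether reads there were counted for Jund is not known, which limits its FPKM and its share of the family.

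Of the EGR genes, Egr3 was higher by 2.18-fold (1.89 to 2.52) in the library labelled KO, so its interval reached below 2. It had 584 counts, or 23.5 CPM, in the library labelled KO and 289 counts, or 10.8 CPM, in the library labelled WT. Egr3 encodes a factor known for roles in muscle spindle formation and in restraining T cell activation. Its call at 2-fold was lost with 2 CPM added (log2 ratio 0.995) and with the authors' FPKM (0.94), and its log2 ratio was above 0 in each alternative run, from 0.94 to 1.12. The sums of macrophage and of endothelial markers were higher in the same library (585 against 256 CPM and 43.3 against 23.3 CPM). Single markers differed, with Cd14 at a log2 ratio of -0.16 and Emcn at -0.25. By 2-fold or more, 8 of 9 macrophage and 3 of 5 endothelial markers past the count minimum were higher. The part of these cells in the value of Egr3 was not tested.

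Egr1, a factor induced by serum, injury and synaptic activity, had 1413 counts in the library labelled KO and 1394 in the library labelled WT, a fold of 1.09 (1.01 to 1.18). Egr2, known as Krox20 and needed for myelination by Schwann cells, had 69 counts and 63, a fold of 1.18 whose interval of 0.826 to 1.69 held 1. The level of Egr1 was thus 2.38 times that of Egr3 in the library labelled KO, against 4.74 times in the library labelled WT. The EGR sum was 83.0 CPM in the library labelled KO and 65.1 CPM in the library labelled WT, a fold of 1.28 (1.20 to 1.36), with 12.7 CPM of the difference from Egr3 and 4.80 CPM from Egr1. The fourth EGR gene, Egr4, had 5 counts in the library labelled KO and 3 in the library labelled WT, too few for a ratio.

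The GC content of transcripts moved with the log2 ratio over all genes, and several members are GC-rich. In 10 bins of GC content the median log2 ratio ran from 0.31 in the bin of lowest GC to -0.31 in the bin of highest GC. Fosl1, Junb and Jund, with 58.5%, 62.6% and 67.1% GC, were in that last bin, and their log2 ratios of -0.07, -0.28 and -0.23 lay at or above its median. Jun, at 55.5% GC and a log2 ratio of -0.45, lay below the median of -0.13 of its bin. Fos and Fosl2, at 51.9% and 53.1% GC, were in a bin with a median of -0.03 and also lay below it. Egr2 and Egr3, at 51.4% and 51.3% GC, were in a bin with a median of 0.04 and lay above it. After the medians of 10 GC bins and then of 10 length bins were subtracted, the log2 ratio was -0.34 for Jun, -0.26 for Fos and -0.21 for Fosl2. It was 0.10 for Fosb, 0.25 for Fosl1, 0.06 for Junb and 0.11 for Jund, so these 4 lost their direction. Egr1, Egr2 and Egr3 were at 0.30, 0.14 and 1.03 after the correction.

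**Figure D4:**
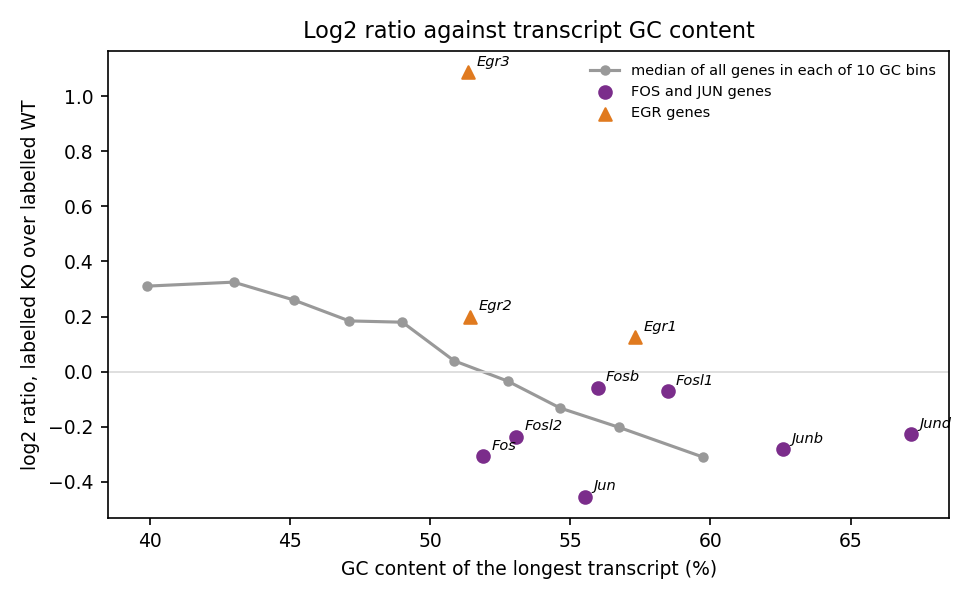
Log2 ratio of each member (library labelled KO over library labelled WT, 0.5 CPM added) against the GC content of its longest transcript; the grey line joins the medians of all genes in 10 GC bins. Jun lies below the line, Junb, Jund and Fosl1 at or above its last point, and Egr3 far above it at 1.09.

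The 3' UTRs of all 10 members held the AU-rich pentamer ATTTA, against 71.3% of genes with enough reads. Overlapping matches were counted. Per kilobase of 3' UTR, 9 of 10 members held more of them than the median gene at 1.22, with 4.91 in Fos, 4.12 in Junb, 3.24 in Jun and 2.65 in Egr3. Fosb was the exception at 0.434. The longer motif TTATTTATT was found in Fos and Fosl2, against 8.17% of genes. Whether pentamer content bears on the log2 ratios between the libraries was not tested.

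Promoters in the RefSeq table (250 bases before to 50 after a start site, GRCm38.p6) were at hand for Fos, Fosb, Fosl2, Jun, Junb, Jund and Egr2, and those of Fosl1, Egr1 and Egr3 were not used here. The following stretches hold letter matches to sites through which serum and cAMP are known to switch on genes of this kind. In Fos, at chr12:85473812-85473841, capitals mark TGACG, the core of the cAMP response element (CRE), which begins 66 bases before the start. In Egr2, at chr10:67537787-67537816, capitals mark a CArG box, the binding sequence of serum response factor, which begins 72 bases before the start. Both are on the plus strand.
Fos promoter: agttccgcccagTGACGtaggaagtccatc
Egr2 promoter: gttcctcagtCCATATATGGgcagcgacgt

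Searched on both strands, the CRE core was in 23.1% of 23808 promoters and the CArG box in 1.54%. The core was also in the promoters of Fosb, Junb and Egr2. The full CRE, TGACGTCA, was found in no promoter of the 7 members searched, and in 2.19% of all. Nor was the AP-1 site TGAGTCA (4.70% of all) or the EGR site GCGTGGGCG (0.785%). These promoter windows do not all sit at the gene starts of GENCODE M21. That of Jund (chr8:70697489-70697788) ends before the gene's start at 70698949. That of Fosl2 (chr5:32136222-32136521) begins after the gene's start at 32135801. The TATA box TATAAA (12.3%) was in Fos and Junb. Both printed genes were low in both libraries, at 1.77 FPKM (labelled KO) and 2.33 FPKM (labelled WT) for Fos and 0.831 and 0.732 FPKM for Egr2. A match of letters says nothing of whether the site was in use.

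Upstream, the genes that carry the signal to these promoters were level by the 2-fold measure, apart from 1 kinase gene. Serum response factor and its cofactors were called for 0 of 7 (median log2 ratio 0.19), with Elk3 at 0.42 and Elk1 at -0.38. The CREB family was called for 0 of 6 (median 0.09), with the coactivator gene Crtc1 at -0.48 and Crem at 0.46. In the MAP kinase cascade, 1 of 18 was higher and 0 lower (median 0.16), against 4.47% and 2.82% of all genes. That gene was Rps6ka2, which encodes a ribosomal S6 kinase downstream of ERK, with 628 counts in the library labelled KO and 312 in the library labelled WT (2.17-fold, 1.89 to 2.49), a call lost with 2 CPM added (log2 ratio 0.998) and with the authors' FPKM (0.92). Mapk8 and Map2k4 had log2 ratios of 0.76 and 0.74, short of 2-fold. Mapk3, the most abundant of the cascade by FPKM, had a log2 ratio of -0.20. In this list 12 genes were above 0 and 6 below.

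Feedback inhibitors of ERK signalling were called in both directions before the GC and length correction, with 2 of 14 higher and 1 lower (median 0.31). The shares over all genes were 4.47% and 2.82%. In this list 11 were above 0 and 3 below, and after the correction 3 were called higher and 0 lower. Dusp5, a nuclear ERK phosphatase gene, had 1483 counts in the library labelled KO and 592 in the library labelled WT (2.70-fold higher, 2.45 to 2.97), and Dusp2 had 149 and 61. Spry1, which encodes a Sprouty inhibitor of receptor tyrosine kinase signalling, had 352 counts in the library labelled KO and 853 in the library labelled WT (2.25-fold lower, 1.98 to 2.55), a call lost after the GC and length correction (log2 ratio -0.92). That of Dusp2 was lost with 2 CPM added (0.90). Dusp1, itself an immediate early gene and a phosphatase of JNK and p38, had a log2 ratio of -0.98 on 2292 and 4882 counts. It was just short of 2-fold and passed with TMM scaling (-1.01). Dusp4 was just short in the other direction, with a log2 ratio of 0.98. It had 2322 counts in the library labelled KO and 1261 in the library labelled WT, and passed after the GC and length correction (1.20).

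Of the partners, the other basic leucine zipper genes that can pair with AP-1 were called for 0 of 10 (median -0.12). Maff, a small MAF gene, and Jdp2, a repressor of AP-1, had log2 ratios of -0.36 each. The EGR corepressor gene Nab1 was 2.52-fold higher in the library labelled KO (2.21 to 2.87), with 792 counts against 339. Nab2, the other corepressor gene and a known EGR target, had a log2 ratio of 0.11 and was the more abundant, at 56.9 FPKM in the library labelled KO and 54.9 FPKM in the library labelled WT. Genes of AU-rich element binding proteins were called for 0 of 8 (median 0.11), with Tial1 at 0.50 and Khsrp at -0.16.

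The other immediate early genes were spread around level, as the members were. Of 36 past the count minimum, 2 were higher by 2-fold or more, 1 was lower and 33 were neither. The shares over all genes were 4.47% higher and 2.82% lower. The median log2 ratio of the list was 0.09, against 0.06 for all genes. Ptgs2, which encodes the inducible cyclooxygenase COX-2, had 41407 counts in the library labelled KO and 14452 in the library labelled WT (3.09-fold higher, 3.03 to 3.15). Klf10, a gene induced by TGF-beta, was 2.10-fold higher (1.78 to 2.48) on 426 and 219 counts, a call lost in 5 alternatives (log2 ratio 0.82 to 0.99), TMM scaling among them. Csrnp1, a nuclear protein gene induced by AXIN1, was 2.32-fold lower (1.97 to 2.73) on 209 and 522 counts, and short of 2-fold after the GC and length correction (log2 ratio -0.98). Ier3 was the most abundant by FPKM, with a log2 ratio of 0.52. The list did not move one way, since 20 were above 0 and 16 below.

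**Figure D5:**
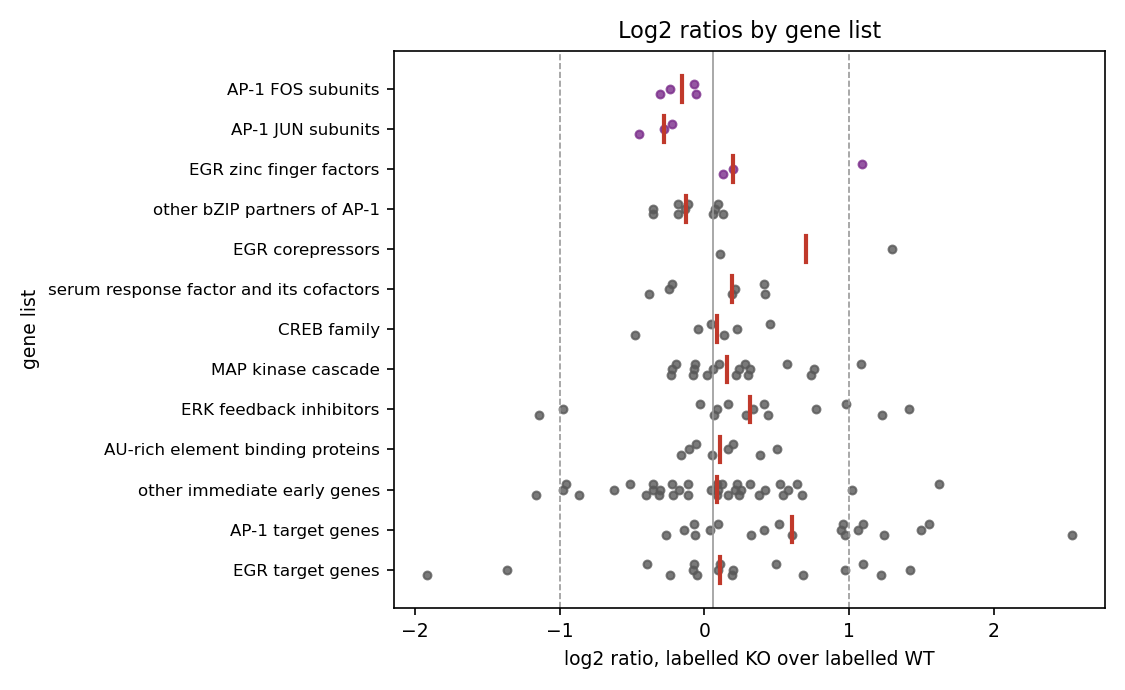
Log2 ratio (library labelled KO over library labelled WT) of each gene past the count minimum, by list; members are purple, red bars are list medians, the grey line is the median of all genes at 0.06 and dashed lines mark 2-fold. The medians run from -0.28 for the JUN subunits to 0.70 for the 2 EGR corepressors, and AP-1 target genes reach 2.55.

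Before GC content and length were corrected for, genes known as AP-1 targets had a higher median log2 ratio than the AP-1 genes themselves, at 0.61. The list median was not taken after that correction. Of 19 past the minimum, Fosl1 among them, 6 were higher by 2-fold or more and 0 were lower, against 4.47% and 2.82% of all genes. In the list 15 were above 0 and 4 below. This list, like the others, was chosen with earlier results of these data known, so its count is a description only. After the GC and length correction 4 were higher, as Cd44 (log2 ratio 0.83) and the stromelysin gene Mmp10 (0.83, and 1.07 before the correction, on 472 and 236 counts) fell short of 2-fold, and Mmp10 did so too with 2 CPM added (0.96) and with the authors' FPKM (0.99). Mmp10 and Cd44 are named after their values were seen. Ccl2, a chemokine gene, had 14850 counts in the library labelled KO and 2730 in the library labelled WT, 5.86-fold higher (5.63 to 6.11). Hbegf, an EGF receptor ligand gene, was 3.03-fold higher on 751 and 267 counts, the cytokine gene Il6 2.84-fold higher (2.72 to 2.96) and the metalloproteinase inhibitor gene Timp1 2.36-fold higher (2.33 to 2.40). Mmp3, another stromelysin gene, had a log2 ratio of -0.06 on 16337 and 18406 counts. These genes also answer to other factors, and markers of macrophages, which express several of them, were higher in the same library, with their part not tested.

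Genes known as EGR targets were called in both directions, with 3 of 17 higher and 2 lower, against 4.47% and 2.82% of all genes. The list median was 0.11 on the log2 scale. Pdgfb, a platelet-derived growth factor gene, was 3.14-fold higher (2.25 to 4.46) on 140 and 48 counts, and the VEGF receptor gene Flt1 2.58-fold higher (1.94 to 3.45) on 170 and 71, a call lost with 2 CPM added (log2 ratio 0.93) and with the authors' FPKM (0.52). Both are also expressed by endothelial cells, whose part was not tested. Of 5 endothelial markers past the count minimum, Cdh5, Pecam1 and Kdr were higher by 2-fold or more in the library labelled KO. Tek (log2 ratio 0.03) and Emcn (-0.25) were not. The third, Cd44, is in the AP-1 list too, with a log2 ratio of 1.09, and 0.83 after the GC and length correction. Icam1, an adhesion molecule gene, was 3.81-fold lower (3.58 to 4.06) on 1211 and 4976 counts, and Igf2 2.58-fold lower (2.49 to 2.67) on 4283 and 11903. Fn1 and Id3, the most abundant of the list by FPKM, had log2 ratios of -0.05 and -0.39.

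Among 7 cytosolic heat shock genes, which tissue handling can also induce, 2 were higher by 2-fold or more and 0 were lower. The shares over all genes were 4.47% and 2.82%, and the list's median log2 ratio was -0.04. The 2 higher genes were Hspa8 (2.04-fold, 2.00 to 2.07) and Hsp90aa1 (2.33-fold, 2.22 to 2.45). Both were short of 2-fold after the GC and length correction (log2 ratios 0.75 and 0.88). Hspa8 also fell short with TMM scaling (0.996), median-of-ratios factors (0.96) and the authors' FPKM (0.97). The inducible gene Hspa1a had 58 counts in the library labelled KO and 130 in the library labelled WT, a fold of 0.481 (0.347 to 0.660). Its log2 ratio was -0.92, short of a call, and -1.03 with 0.1 CPM added, which was past it.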

How the data were processed

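Each deposited table held gene counts and the authors' FPKM, per the file headers. Per the submitters' processing notes, HISAT2 aligned the reads to mm10 (GRCm38). The counter, annotation release and strand setting are not stated in the labels or headers. Libraries came from total RNA after Ribo-Zero treatment, with a NEBNext Ultra kit, per the labels' protocols. The gene lengths implied by the authors' FPKM were within 1% of the summed exons in GENCODE M21 for 90.8% of 19312 genes and for 9 of 10 members; for Fosl1 the implied length was 1707 bases, against 2033.

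Counts were used as deposited and divided by their total (CPM), and log2 ratios of KO over WT were taken with 0.5 CPM added, for genes that reached 50 counts in either library. Left out were 4 genes whose count over FPKM was not the same in both tables within 1%. Folds carry no addition and have 95% Clopper-Pearson intervals; levels have exact Poisson intervals. Reads had no molecular identifiers, so intervals and limits hold counting error alone. The procedure was tested on simulated counts.

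Members, lists and alternatives were chosen with earlier results of these data known. Named genes are the members and, per list, the 4 with the largest absolute log2 ratio and the 2 with the highest FPKM; some fit both and not all are printed. Alternatives were TMM (edgeR 4.0.16), a total without the 20 most counted and mitochondrial genes, median-of-ratios factors, 0.1 and 2 CPM added, a minimum of 200 counts or none, the authors' FPKM, a GC and length correction, and thresholds of 1.5-fold and 4-fold. Family shares by longest transcript, family sums under each scaling and the counts of target and heat shock lists under each alternative were added after the data were seen. Python 3.11.15, pandas 2.3.3, scipy 1.17.1, matplotlib 3.10.9 and R 4.3.3 were used.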

Additional observations from a re-analysis of the deposited data

How the results depend on the processing

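No paired analysis was possible because there is 1 library per genotype, and no library could be left out for the same reason. The count of members higher by 2-fold was 1, and 0 with 2 CPM added, with the authors' FPKM and at 4-fold; no member was lower in any alternative run. Over all genes, counts of higher and lower were 554 and 349, and 351 and 214 with 2 CPM added, 340 and 213 with a minimum of 200 counts, 1645 and 1100 at 1.5-fold, and 103 and 58 at 4-fold; the authors' FPKM gave 322 higher. Other immediate early genes were 2 higher and 1 lower, and 1 and 2 with TMM and with the authors' FPKM, 1 and 3 with median-of-ratios factors, 4 and 5 at 1.5-fold and 0 and 0 at 4-fold; 1 was higher with 2 CPM added and with the GC and length correction. Of the EGR targets, 3 were higher, and 1 with a minimum of 200 counts, which left out Pdgfb and Flt1; of the AP-1 targets, 6 and 4 with the GC and length correction; of the heat shock genes, 2, and 1 with TMM, median-of-ratios factors and the authors' FPKM, and 0 with the GC and length correction. The 7 AP-1 log2 ratios were below 0 under each scaling and pseudocount run. The GC and length correction left 3 of them below 0, and the minimum of 200 counts left out Fos, Fosb and Egr2. The summed JUN family had a log2 ratio of -0.33, and -0.39 with median-of-ratios factors. Family sums were not taken with the GC and length correction. At 63 to 143 counts in the library labelled WT, differences as small as those of Egr2, Fos and Fosb were not detectable at this depth.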
